A study of Mus musculus with 2 samples.

Results

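Eph receptors and ephrins were followed through 10 genes of this single-nucleus RNA dataset from mouse hippocampal area CA1. They comprise 8 receptors (Epha3, Epha4, Epha5, Epha6, Epha7, Epha10, Ephb1 and Ephb2) and 2 ligands (Efna5 and Efnb2), taken by gene symbol out of the 30431 gene rows of the count matrices. Another 12 rows of the same family were read only as company to these. Between them the 10 genes held 106167 unique molecular identifiers (UMIs, each standing for 1 captured RNA molecule) in the control library and 61027 in the epilepsy library, or 9359 and 8978 CPM (UMIs scaled so that each library or class sums to the same fixed total).

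Eph receptors form the largest family of receptor tyrosine kinases, and their ligands, the ephrins, are themselves bound to the membrane of the neighbouring cell. A-type ephrins are held by a lipid anchor and bind mainly EphA receptors, whereas B-type ephrins span the membrane and bind mainly EphB receptors, with Epha4 known to bind both. Contact between 2 cells can send a signal into the receptor-bearing cell and a reverse signal into the ephrin-bearing cell. In the hippocampus the family is known for axon guidance, for placing afferents in layers, and for the shape and plasticity of dendritic spines.

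The study compared chronic epilepsy with its control in male mice of the C57BL/6J background bearing Calb1::Cre together with the Tdtomato reporter, a cross shared by both groups in which the Cre is driven from the calbindin gene. Epilepsy animals were given kainate, a glutamate receptor agonist, in repeated 5 mg/kg injections at 6 to 7 weeks of age until status epilepticus, followed by diazepam at 4 mg/kg. Control animals received vehicle. Nuclei from manually dissected dorsal CA1 were taken 12 weeks later, sorted, loaded at 15000 per reaction and turned into 1 droplet library per condition.

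The labels name 2 mice per condition but do not say whether a library holds nuclei of 1 or both, nor whether the sort used the reporter. With 1 library per condition there was no replicate check and no test of a condition difference, and library and condition cannot be told apart. All intervals are exact 95% intervals for counting error only, and "higher" and "lower" describe these libraries.

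The control library held 3661 nuclei with a median of 3447 UMIs, and the epilepsy library held 3078 nuclei with a median of 2443. The libraries shared 16 cell barcodes. Nuclei were clustered without any Eph receptor or ephrin gene, and clusters were named from other marker genes. Pyramidal-like nuclei numbered 2836 in control and 2339 in epilepsy, interneuron-like nuclei 198 and 143, oligodendrocyte-like nuclei 225 and 311, and microglia-like nuclei 36 and 39. Dentate granule-like nuclei numbered 153 in control but 14 in epilepsy, so their levels are given for control only. Among pyramidal-like nuclei, 1 cluster had high Ndst4 and Col11a1 with low Calb1 and was called deep-like (687 and 499 nuclei), and 3 clusters with the opposite pattern were called superficial-like (1512 and 1331 nuclei). Calb1, which encodes calbindin, read 6.75 and 9.82 CPM in deep-like nuclei of control and epilepsy and 43.1 and 39.0 CPM in superficial-like nuclei. Ndst4 read 1090 and 1018 CPM against 174 and 123 CPM. Because the sublayers were built from the same nuclei in which the family was then read, sublayer contrasts are descriptions.

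RNA of pyramidal nuclei was also found in nuclei of other classes. The summed level of 9 pyramidal markers in oligodendrocyte-like nuclei was 60.8% of its pyramidal-like level in control and 51.9% in epilepsy, and in microglia-like nuclei it was 85.4% and 64.6%. In interneuron-like nuclei it was 24.4% and 23.7%. Levels of the family in glial classes are therefore given as background to the neuronal levels, and the part of such RNA in each neuronal level was not tested. UMIs were counted over whole genes of very different length, from 36.9 kb for Epha10 to 952 kb for Epha6, so levels are compared between classes and libraries and never between genes.

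Epha3 and Epha10 differed between sublayers by more than any member with at least 50 UMIs differed between libraries in the neuronal classes named here. Of the 8 members with at least 50 UMIs over the 2 sublayers of a library, 2 differed by at least 1.5-fold between superficial-like and deep-like nuclei in control (Epha3 and Epha10), where 14.8% of all such rows did. In epilepsy 3 of 8 did (Epha3, Epha10 and Ephb2), against 21.7% of all rows. Between libraries, 1 of 8 members passed 1.5-fold in deep-like nuclei (Epha10, higher in epilepsy), where 14.0% of all rows with at least 50 UMIs passed. In superficial-like nuclei 1 of 9 passed (Efnb2, lower in epilepsy), against 11.8% of all rows. Over all pyramidal-like nuclei 1 of 10 passed (Ephb1, higher in epilepsy), against 13.9%, and in interneuron-like nuclei 0 of 8 passed, against 12.7%. Between libraries each of these shares rests on at most 1 gene and lies near or below that of all rows. Its order against all rows depends on the UMI minimum. At a minimum of 500 UMIs in deep-like nuclei, 1 of 5 members passed (Epha10), against 4.35% of all rows. No result about the family is read from these counts. Between sublayers the share of members lay above that of all rows, from 2 and 3 genes only.

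**Figure D1:**
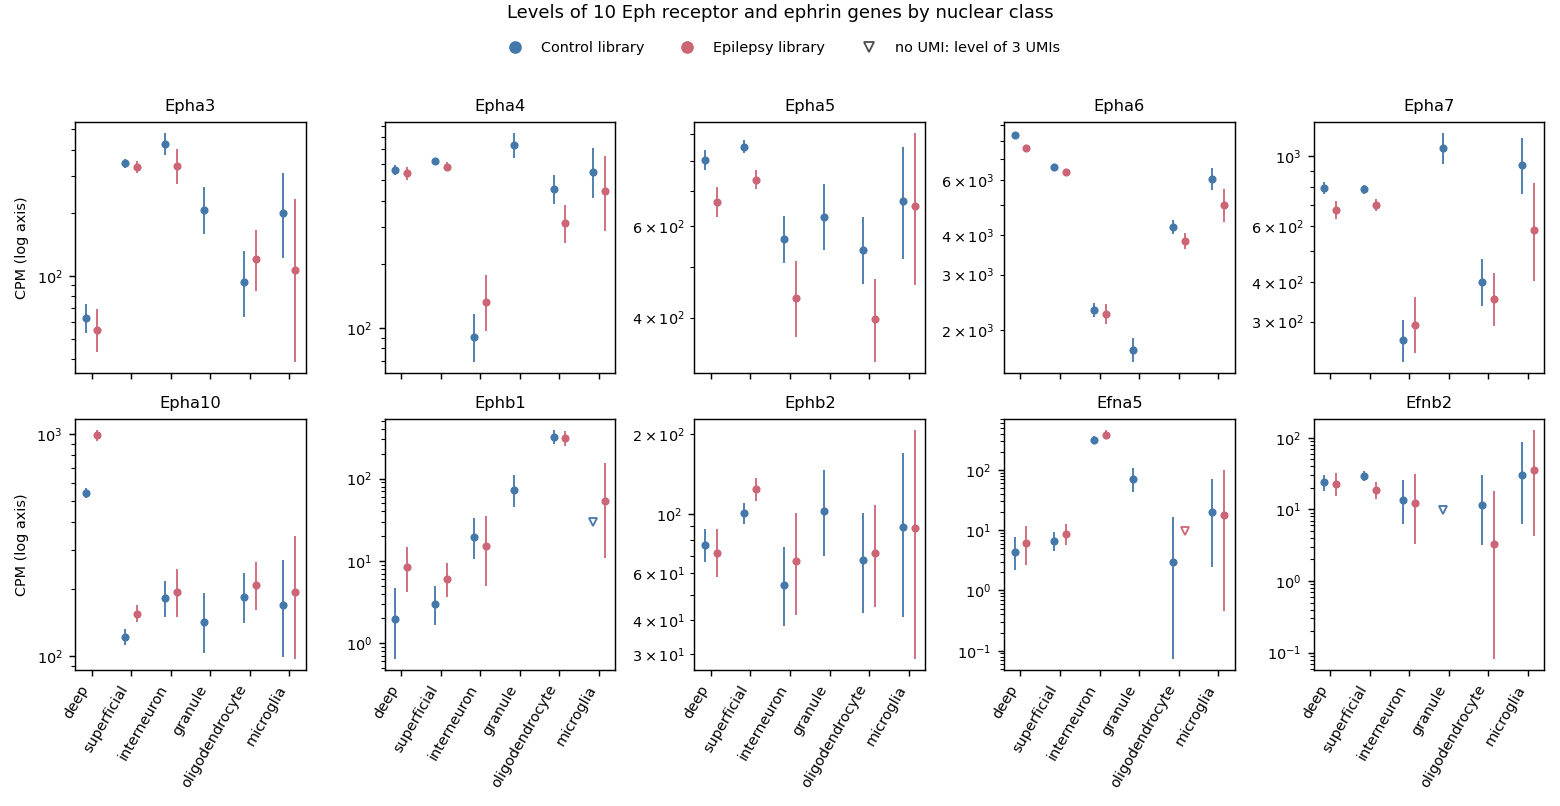
Level of each of the 10 genes in CPM (log axis) in the classes of nuclei, with 95% counting intervals, in the control and epilepsy libraries (granule-like nuclei in control only). Open triangles mark classes with no UMI, drawn at the level that 3 UMIs would give. Epha3 is low in deep-like nuclei, Epha10 is high there, Efna5 is high in interneuron-like nuclei and Ephb1 is high in oligodendrocyte-like nuclei.

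Epha3 was higher in superficial-like nuclei and Epha10 in deep-like nuclei in both libraries. Epha3 is a receptor of A-type ephrins, and Epha10 is a receptor whose kinase domain lacks catalytic activity. The 300 bases around the annotated start of each gene (250 before and 50 after, RefSeq models on GRCm38, written 5′ to 3′ in the direction of the gene with CG dinucleotides in capitals) are shown because these 2 genes carry the sublayer contrast. The Epha3 window is chr16:63864126-63864425 on the minus strand, and the Epha10 window is chr4:124881535-124881834 on the plus strand, inside the longer GENCODE gene.
Epha3: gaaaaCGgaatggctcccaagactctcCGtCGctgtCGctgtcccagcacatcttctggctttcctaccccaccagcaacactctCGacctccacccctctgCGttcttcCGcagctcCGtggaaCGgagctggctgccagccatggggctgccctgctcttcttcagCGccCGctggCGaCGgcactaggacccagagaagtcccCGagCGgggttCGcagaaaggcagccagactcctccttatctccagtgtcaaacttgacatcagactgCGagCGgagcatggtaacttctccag
Epha10: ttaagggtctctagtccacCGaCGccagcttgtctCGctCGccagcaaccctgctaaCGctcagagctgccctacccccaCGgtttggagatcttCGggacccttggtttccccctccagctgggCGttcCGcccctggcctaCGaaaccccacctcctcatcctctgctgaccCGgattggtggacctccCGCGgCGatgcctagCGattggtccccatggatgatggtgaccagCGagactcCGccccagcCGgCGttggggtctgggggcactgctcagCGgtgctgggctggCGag
The Epha3 window held 18 CG dinucleotides and the Epha10 window 21, with G or C making up 60.7% and 65.3% of bases. All 10 members matched an entry, 11 in all because Epha7 has 2, and their windows held 14 to 38 CG dinucleotides. The median over 32851 windows was 7, and 36.3% of them held at least 14. The E-box letters CANNTG, searched on both strands, occurred in 4 of the 11 windows (those of Epha6, Epha10, Ephb2 and Efnb2, and not that of Epha3) and in 72.3% of all windows. The letters AAAGGTCA, bound by the Nr4a receptors, occurred in none of the 11 and in 1.51% of all, and the cyclic AMP response element TGACGTCA in none of the 11 and in 1.79% of all. These matches describe letters only.

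Epha3 lies on chromosome 16 from 63543534 to 63864175 (GRCm38, GENCODE M21, minus strand). Its level in superficial-like nuclei was 344 CPM in control and 330 CPM in epilepsy (1722 and 1042 UMIs). In deep-like nuclei it was 62.7 CPM in control and 55.1 CPM in epilepsy (158 and 73 UMIs). The superficial-like level was the higher of the 2 in each library, and the counting intervals of the sublayers did not overlap. The superficial-to-deep ratio was 5.48-fold in control (log2 2.46, 2.22 to 2.70) and 5.99-fold in epilepsy (log2 2.58, 2.24 to 2.95), and these intervals overlapped. A UMI of Epha3 was found in 56.6% of superficial-like nuclei in control and 47.5% in epilepsy, against 18.6% and 12.4% of deep-like nuclei and 8.89% and 9.65% of oligodendrocyte-like nuclei. Median depths were 3476.5 and 2460 UMIs in superficial-like nuclei, 3756 and 2682 in deep-like nuclei, and 844 and 615 in oligodendrocyte-like nuclei. After each nucleus was thinned to 1000 UMIs the shares were 25.9% and 27.4% of superficial-like, 6.15% and 5.51% of deep-like, and 8% and 13.2% of oligodendrocyte-like nuclei. At equal depth the deep-like share of Epha3 was below the glial share and the superficial-like share was above it, with 75 and 53 oligodendrocyte-like nuclei deep enough to thin. A deep-like level of Epha3 apart from background was not shown.

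Within superficial-like nuclei Epha3 was graded between clusters. It was highest in the cluster led by Pcdh7 and Grik4, at 449 CPM in control and 422 CPM in epilepsy. The cluster led by Tenm3 read 229 and 262 CPM, and the superficial-like cluster of low UMI counts read 287 and 226 CPM. The first of these clusters exceeded the second in both libraries, by log2 0.97 in control and 0.69 in epilepsy. Of the pyramidal-like clusters in neither sublayer, the one led by activity genes such as Fos read 219 and 178 CPM in control and epilepsy. The one led by Cdh4 read 202 and 244 CPM. Epha3 was thus low in the deep-like cluster and not particular to superficial-like nuclei. Between libraries Epha3 differed little in either sublayer: the epilepsy-to-control log2 ratio was -0.06 (-0.17 to 0.05) in the superficial-like clusters and -0.19 (-0.61 to 0.22) in the deep-like cluster, and both intervals held 0. The sign of both depended on how nuclei were clustered or scaled.

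Epha10 lies on chromosome 4 from 124880899 to 124917800 (plus strand). In deep-like nuclei it read 542 CPM in control and 985 CPM in epilepsy (1367 and 1304 UMIs). In superficial-like nuclei it read 122 CPM in control and 155 CPM in epilepsy (609 and 489 UMIs). Interneuron-like, granule-like, oligodendrocyte-like and microglia-like nuclei lay between 143 and 208 CPM, so that of these 6 classes deep-like nuclei alone stood clear of the others, with the epilepsy granule-like nuclei not counted. Of the pyramidal-like clusters in neither sublayer, the one led by activity genes such as Fos read 335 and 505 CPM in control and epilepsy. The one led by Cdh4 read 227 and 268 CPM, so levels above 208 CPM were not confined to deep-like nuclei. The control deep-like level exceeded the superficial-like level 4.46-fold (log2 -2.16 for superficial over deep, -2.30 to -2.02), and the epilepsy deep-like level did so 6.35-fold (log2 -2.67, -2.82 to -2.52). These intervals did not overlap, and the difference between the 2 ratios was not tested because neither condition has a replicate. Superficial-like levels lay below the 184 and 208 CPM of oligodendrocyte-like nuclei, so a superficial level of Epha10 apart from background was not shown.

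**Figure D2:**
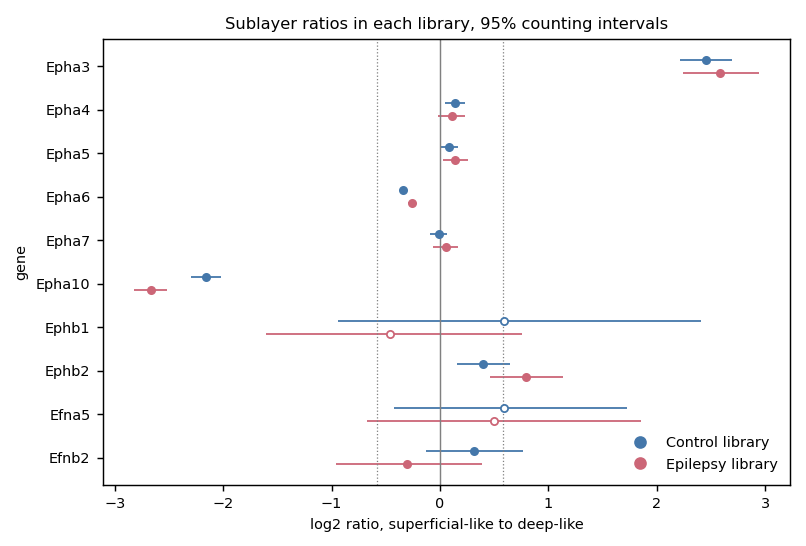
Log2 ratio of superficial-like to deep-like level (horizontal axis) for each of the 10 genes in each library, with 95% counting intervals. Epha3 lies near 2.5 on the superficial side, Epha10 lies at -2.16 in control and -2.67 in epilepsy, and Epha4, Epha5 and Epha7 lie close to 0.

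The largest difference between libraries among members with at least 50 UMIs over both libraries in a sublayer was that of Epha10 in deep-like nuclei. The epilepsy level was 1.82-fold the control level (log2 0.86, 0.75 to 0.97), and the 2 counting intervals did not overlap. Of the 1126 rows with at least 500 UMIs in deep-like nuclei, 4.35% passed 1.5-fold in either direction and 2.58% passed it upwards, Epha10 being 1 of the latter. In superficial-like nuclei the ratio was 1.28-fold (log2 0.35, 0.18 to 0.52), and in interneuron-like nuclei log2 0.09 (-0.37 to 0.54). Over all pyramidal-like nuclei the levels were 266 and 399 CPM, a log2 ratio of 0.58 (0.50 to 0.66) just short of 1.5-fold. In the 5 pyramidal-like clusters plotted beside the deep-like one, the ratio of Epha10 was log2 0.28 (-0.06 to 0.62) in the Pcdh7 and Grik4 cluster and 0.24 (-0.03 to 0.51) in the Tenm3 cluster. It was 0.59 (0.27 to 0.91) in the cluster of low UMI counts, 0.59 (0.38 to 0.80) in the cluster led by activity genes such as Fos, and 0.24 (-0.07 to 0.54) in the cluster led by Cdh4. All 5 values were above 0, and 2 of the 5 intervals excluded 0. Another cluster of 73 control and 30 epilepsy nuclei with low UMI counts, not plotted, gave 0.51 (-1.17 to 2.01) from 13 and 6 UMIs.

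**Figure D3:**
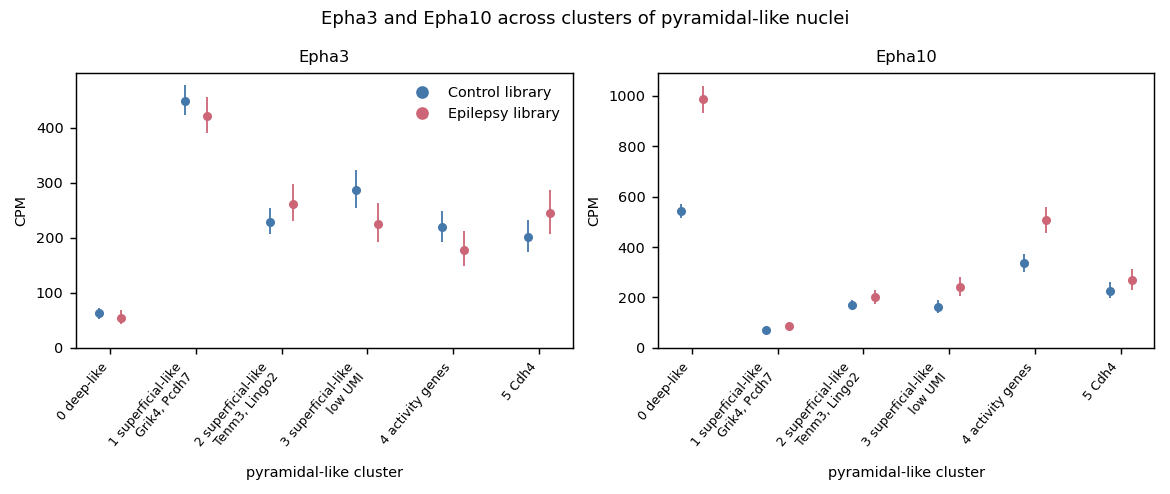
Levels of Epha3 and Epha10 in CPM (linear axis from 0) across 6 clusters of pyramidal-like nuclei in each library, with 95% counting intervals. Epha10 is highest in the deep-like cluster, at 542 CPM in control and 985 CPM in epilepsy, and Epha3 is highest in the Pcdh7 and Grik4 cluster.

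The same Epha10 UMIs were also read as shares of nuclei. These shares describe the difference again and add no separate support, because nuclei of 1 library are not replicates. Unthinned, 81.5% of deep-like nuclei in control and 88.6% in epilepsy held a UMI of Epha10, although the epilepsy nuclei were shallower. Thinned to 1000 UMIs, which left 683 of 687 control and 490 of 499 epilepsy nuclei, the shares were 42.2% and 64.3%. Nuclei with 1 UMI made up 28.8% in control and 36.9% in epilepsy, those with 2 made up 9.22% and 17.1%, and those with 3 or more made up 4.10% and 10.2%. The shares with 1, 2 and 3 or more UMIs were each higher in epilepsy. For comparison, oligodendrocyte-like nuclei held a UMI in 16.0% and 12.5% of nuclei unthinned, and in 16.0% and 28.3% thinned. Of the markers of the deep sublayer, Ndst4 read 1090 and 1018 CPM in control and epilepsy, and Col11a1 554 and 523 CPM. Nr4a2 read 127 and 73.3 CPM. Ndst4 and Col11a1 were used to name the cluster, so their levels are no independent check of its makeup, which was not tested.

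**Figure D4:**
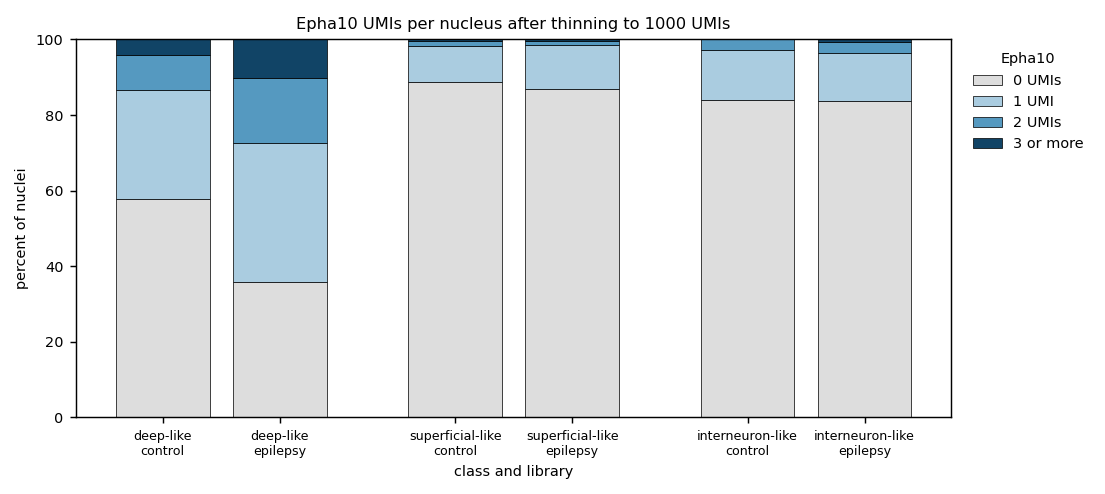
Percent of nuclei (stacked to 100) with 0, 1, 2, or 3 or more UMIs of Epha10 after thinning to 1000 UMIs, by class and library. Deep-like nuclei without a UMI make up 57.8% in control and 35.7% in epilepsy.

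Epha4, Epha5, Epha6 and Epha7 were found in both sublayers at similar levels. Epha4, the receptor that binds ephrins of both types, read 557 and 539 CPM in deep-like nuclei of control and epilepsy, and 615 and 581 CPM in superficial-like nuclei. Epha7 read 794 and 678 CPM in deep-like and 787 and 703 CPM in superficial-like nuclei. The superficial-to-deep log2 ratio of Epha4 was 0.14 (0.05 to 0.23) in control and 0.11 (-0.02 to 0.23) in epilepsy, and that of Epha7 was -0.01 and 0.05. Epha5, which is known in axon guidance and synapse formation, showed sublayer ratios of 0.09 and 0.14. Epha6 was the only one of these 4 that was lower in superficial-like nuclei beyond counting error in both libraries, at 6582 CPM against 8345 CPM in control and 6343 CPM against 7601 CPM in epilepsy. Its log2 ratios were -0.34 (-0.37 to -0.32) and -0.26 (-0.30 to -0.23), well under 1.5-fold.

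Several of these abundant receptors were slightly lower in the epilepsy library, each by less than 1.5-fold. Epha5 read 801 CPM in control and 667 CPM in epilepsy in deep-like nuclei, 851 and 736 CPM in superficial-like nuclei, and 566 and 436 CPM in interneuron-like nuclei. The epilepsy level was the lower in each of these classes, with log2 ratios of -0.26 (-0.38 to -0.15), -0.21 (-0.28 to -0.14) and -0.38 (-0.66 to -0.10). Within interneurons the ratio was -0.32 (-0.95 to 0.27) on the Adarb2 side and -0.19 (-0.61 to 0.21) on the Lhx6 and Sox6 side. In interneurons of neither side it was -0.59 (-1.15 to -0.06). Oligodendrocyte-like nuclei, read as background, gave -0.44 (-0.78 to -0.11) at 540 and 397 CPM, and microglia-like nuclei -0.03 (-0.65 to 0.57). The part of background RNA was not tested. In the 6 pyramidal-like clusters plotted for Epha3, the ratio of Epha5 ran from -0.30 to -0.18 and every interval lay below 0. For Epha7 the deep-like ratio was -0.23 (-0.34 to -0.11) and the superficial-like ratio -0.16 (-0.24 to -0.09), and for Epha6 these were -0.13 (-0.17 to -0.10) and -0.05 (-0.08 to -0.03). Those of Epha4 were -0.05 (-0.18 to 0.08) and -0.08 (-0.17 to 0.00), at or across 0. The median member lay at -0.11 in deep-like nuclei, where all rows had a median of -0.04, and at -0.06 in superficial-like nuclei, where all rows had 0.02. In deep-like nuclei 7 of 8 members lay below 0, beside 3821 of all 6950 rows with at least 50 UMIs. In superficial-like nuclei 6 of 9 members did, beside 4495 of 9488 rows.

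**Figure D5:**
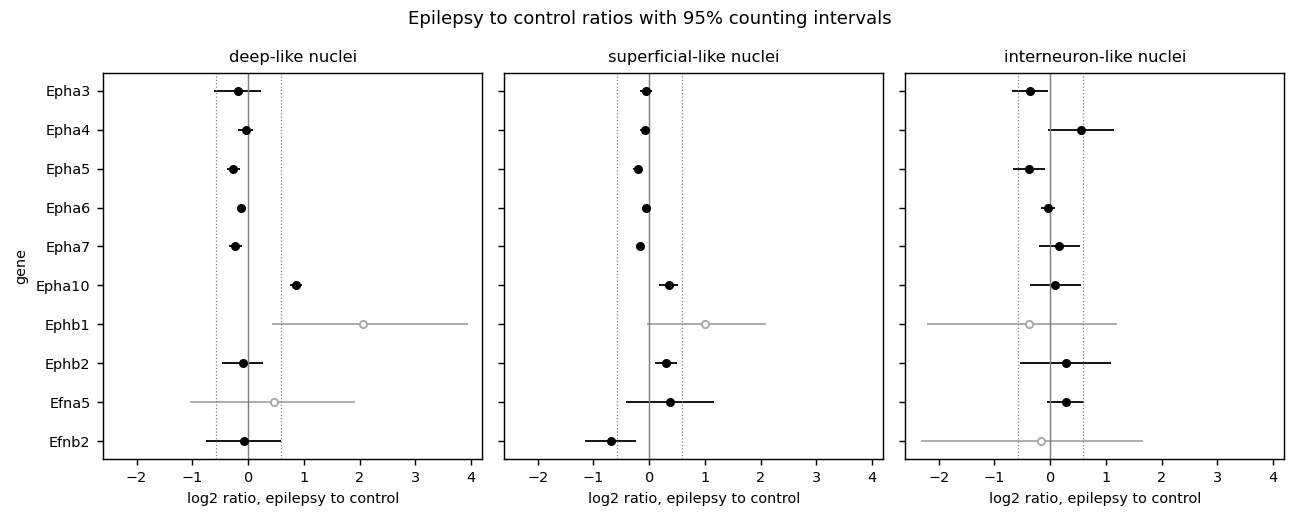
Log2 ratio of epilepsy to control level (horizontal axis) for each gene in deep-like, superficial-like and interneuron-like nuclei, with 95% counting intervals. In deep-like nuclei Epha10 lies at 0.86 and Epha5, Epha6 and Epha7 lie just below 0. Ephb1, Efna5 and Efnb2 have wide intervals from few UMIs.

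Interneuron-like nuclei had a distinct profile of EphA receptors. Epha4 was low in them, at 90.8 CPM in control and 133 CPM in epilepsy. Its log2 ratio to pyramidal-like nuclei was -2.71 and -2.09, and its level there was 15.2% and 23.5% of the pyramidal-like level, below the 24.4% and 23.7% at which pyramidal markers were read in the same nuclei. Epha6 at log2 -1.64 and -1.60 and Epha7 at -1.57 and -1.25 were also lower than in pyramidal-like nuclei. Epha3 was the exception, at 427 CPM in control and 333 CPM in epilepsy, or 176% and 138% of its pyramidal-like level of 242 and 241 CPM. That pyramidal-like level includes the low deep-like nuclei. Superficial-like nuclei read 344 and 330 CPM, close to the interneuron-like level in epilepsy. Interneurons of the Lhx6 and Sox6 side, described next, lay below the pyramidal-like level at 169 and 137 CPM.

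Interneuron-like nuclei were further split into an Adarb2 side, the division known to arise from the caudal ganglionic eminence, and an Lhx6 and Sox6 side from the medial eminence. A cluster of 45 control and 28 epilepsy nuclei fitted neither side. Epha3 was higher on the Adarb2 side than on the Lhx6 and Sox6 side. Its level was 627 CPM in control and 435 CPM in epilepsy in 72 and 56 Adarb2 nuclei, against 169 and 137 CPM in 81 and 59 Lhx6 or Sox6 nuclei. The Adarb2 level was higher in both libraries, with log2 ratios of 1.90 (1.42 to 2.39) and 1.67 (0.90 to 2.47). The nuclei of neither side read 690 CPM (98 UMIs) and 624 CPM (39 UMIs), at or above the Adarb2 level, so the Adarb2 side was not the highest group of interneurons for Epha3. Epha6 went the other way, at log2 -1.21 and -1.14. Over all interneuron-like nuclei the epilepsy-to-control ratio of Epha3 was -0.36 (-0.69 to -0.04), and on the Adarb2 side it was -0.53 (-1.03 to -0.05). On the Adarb2 side 2 of the 6 members with enough UMIs passed 1.5-fold between libraries, Epha7 at log2 0.75 (0.02 to 1.47, from 36 and 33 UMIs) and Efna5 at 1.10 (0.35 to 1.85, from 30 and 35 UMIs), where 18.6% of all rows passed. On the Lhx6 and Sox6 side 1 of 7 passed, Epha4 at 0.76 (-0.05 to 1.56, from 31 and 26 UMIs), against 13.9% of all rows. These rest on few UMIs, and the Epha4 interval holds 0. The Epha4 level on the Lhx6 and Sox6 side was under 0.25 of the level in granule-like nuclei in both libraries. The Epha7 level on the Adarb2 side was under that mark in control (171 CPM) and above it in epilepsy (287 CPM). RNA from other nuclei was not told apart from that of these interneurons.

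Granule-like nuclei of the control library carried the highest levels of Epha4 and Epha7 among the 6 classes plotted by level. Epha4 read 734 CPM there, log2 0.30 (0.10 to 0.50) above pyramidal-like nuclei, and Epha7 read 1062 CPM, log2 0.45 (0.28 to 0.61) above them. The order of granule-like and microglia-like nuclei was not separable for either gene. The Epha7 intervals of granule-like, microglia-like, deep-like and superficial-like nuclei formed an overlapping chain. That chain ran through the microglia-like level of 937 CPM, from 94 UMIs, and the granule-like level exceeded the pyramidal-like one beyond counting error. Epha6 was lower in granule-like nuclei, at 1733 CPM, log2 -2.06 (-2.19 to -1.93) against pyramidal-like nuclei. Epha3 read 206 CPM from 62 UMIs and Epha5 read 624 CPM. In the same nuclei pyramidal markers stood at 53.0% of their pyramidal-like level, so Epha6 at 24.0% was under that mark while Epha4 at 123% and Epha7 at 137% were above it.

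Ephb1 was spread less evenly over the classes than Ephb2. Ephb1, a receptor of B-type ephrins known in synaptic plasticity and axon midline choice, lies on chromosome 9 from 101922128 to 102354693. Among the 6 classes plotted by level it was highest in oligodendrocyte-like nuclei, at 324 CPM in control and 309 CPM in epilepsy (111 and 95 UMIs), log2 6.81 and 5.53 above pyramidal-like nuclei. Those 2 levels did not differ beyond counting error, at a log2 ratio of -0.07 (-0.48 to 0.34). Granule-like nuclei in control read 73.0 CPM from 22 UMIs, log2 4.66 (3.79 to 5.52) above pyramidal-like nuclei, and interneuron-like nuclei read 19.7 and 15.1 CPM from 13 and 5 UMIs. The 29 astrocyte-like nuclei of control read 140 CPM, from 6 UMIs only. In granule-like nuclei Ephb1 stood at 22.6% of its oligodendrocyte-like level, where oligodendrocyte markers stood at 2.87%.

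In pyramidal-like nuclei Ephb1 was scarce, with 28 UMIs (2.88 CPM) in control and 39 UMIs (6.69 CPM) in epilepsy. The epilepsy level was the higher, 2.32-fold (log2 1.22, 0.48 to 1.97), and this was the call over all pyramidal-like nuclei. Beside it, the oligodendrocyte markers read 78.6 CPM in pyramidal-like nuclei of control and 124 CPM in epilepsy, or 1.31% and 1.92% of their level in oligodendrocyte-like nuclei, and Ephb1 stood at 0.89% and 2.16% of its own. The markers were higher in the same library as Ephb1, and their part in the result was not tested. In deep-like nuclei the counts were 5 and 11 UMIs, and in superficial-like nuclei 15 and 19, each under the 50 needed for a call. The call over pyramidal-like nuclei was also lost where 200 UMIs were required or nuclei were thinned, because too few UMIs then remained.

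Ephb2, a receptor known for clustering NMDA receptors at synapses, lies on chromosome 4 from 136647539 to 136835988. It read 76.6 CPM in control and 71.7 CPM in epilepsy in deep-like nuclei, and 101 and 124 CPM in superficial-like nuclei. The superficial-like level was the higher in both libraries, by log2 0.40 (0.15 to 0.64) in control and by 0.79 (0.47 to 1.13) or 1.73-fold in epilepsy, and those intervals overlapped. Between libraries, superficial-like nuclei gave a ratio of 0.30 (0.11 to 0.49), and deep-like nuclei gave -0.09 (-0.46 to 0.27). Clusters differed in direction, with 0.49 (0.21 to 0.78) in the Pcdh7 and Grik4 cluster and -0.58 (-1.17 to -0.01) in the cluster led by activity genes. Interneuron-like nuclei read 54.5 and 66.6 CPM, and oligodendrocyte-like nuclei 67.1 and 71.6 CPM, which lies close to the deep-like level.

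Of the 2 ligands, Efna5 was highest in interneuron-like nuclei among the classes plotted by level. Efna5, an A-type ephrin that binds most EphA receptors, lies on chromosome 17 from 62604184 to 62881317. Interneuron-like nuclei read 318 CPM in control and 384 CPM in epilepsy (210 and 127 UMIs). Pyramidal-like nuclei read 5.15 and 6.86 CPM (50 and 40 UMIs). The interneuron level was the higher in both libraries, 61.7-fold in control (log2 5.95, 5.50 to 6.42) and 56.0-fold in epilepsy (log2 5.81, 5.28 to 6.36). A UMI was found in 46.5% and 41.3% of interneuron-like nuclei at median depths of 3270 and 2157 UMIs, in 1.46% and 1.60% of deep-like nuclei, and in 0.444% and 0 of oligodendrocyte-like nuclei. Thinned, the shares were 22.0% and 28.9%, 0.439% and 0.816%, and 0 and 0. In epilepsy no UMI was found in 311 oligodendrocyte-like nuclei, and 3 UMIs would have read 9.76 CPM. In pyramidal-like nuclei Efna5 stood at 1.62% and 1.79% of its interneuron level, while interneuron markers stood at 0.513% and 0.870% of theirs.

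Efna5 was read in all 3 groups of interneurons. The Adarb2 side read 143 CPM in control and 305 CPM in epilepsy, and the Lhx6 and Sox6 side 347 and 464 CPM. The Lhx6 and Sox6 side was the higher in both libraries, with an Adarb2 to Lhx6 and Sox6 log2 ratio of -1.28 (-1.92 to -0.69) in control and -0.61 (-1.23 to -0.00) in epilepsy. The nuclei of neither side read 514 CPM (73 UMIs) in control and 336 CPM (21 UMIs) in epilepsy. Granule-like nuclei in control read 69.7 CPM from 21 UMIs, log2 3.76 (2.95 to 4.52) above pyramidal-like nuclei. Over all interneuron-like nuclei the epilepsy-to-control ratio was 0.27 (-0.05 to 0.60), an interval that holds 0.

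Efnb2, a B-type ephrin also known from blood vessel formation, lies on chromosome 8 from 8617434 to 8661242 and held few UMIs outside pyramidal-like nuclei. It read 29.5 CPM in control and 18.4 CPM in epilepsy in superficial-like nuclei (148 and 58 UMIs), and 23.8 and 22.7 CPM in deep-like nuclei (60 and 30 UMIs). The superficial-like level was lower in epilepsy, 1.61-fold (log2 -0.68, -1.15 to -0.24), and the deep-like ratio was -0.07 (-0.75 to 0.58). In the 5 pyramidal-like clusters plotted beside the deep-like one, the ratio of Efnb2 ran from -0.80 to -0.46 (the small cluster that was not plotted held 1 UMI in each library), and over all pyramidal-like nuclei it was -0.48 (-0.80 to -0.17). The superficial-like ratio dropped under 1.5-fold, to log2 -0.49 with a minimum of 500 detected genes per nucleus and to -0.58 at a coarser clustering. Interneuron-like nuclei held 9 and 4 UMIs. Granule-like nuclei in control held none, where 3 UMIs would have read 9.96 CPM, and its oligodendrocyte-like levels of 11.7 and 3.25 CPM lay below the pyramidal-like 28.5 and 20.4 CPM. Microglia-like nuclei read above the pyramidal-like levels, at 29.9 and 35.4 CPM, from 3 and 2 UMIs only. A pyramidal-like level of Efnb2 apart from all glial background was thus not shown.

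Of the 12 other family rows, 4 reached 50 UMIs in pyramidal-like nuclei and none of the 4 passed 1.5-fold there. Ephb3 read 14.0 CPM in control and 15.1 CPM in epilepsy. Ephb6, which lacks kinase activity, read 17.1 and 19.0 CPM, and the ligand Efnb3 read 34.1 and 35.5 CPM. Efna3 read 7.62 and 5.32 CPM. In superficial-like nuclei Efna3 passed 1.5-fold at log2 -0.61 (-1.46 to 0.19), an interval that holds 0.

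A list of 34 genes that act downstream of Eph receptors or beside them (guanine nucleotide exchange factors, adaptors, Src-family kinases, scaffold proteins and phosphatases) was read in the same nuclei. In pyramidal-like nuclei 30 had at least 50 UMIs, of which 2 were higher in epilepsy by 1.5-fold or more and 1 was lower, where 8.82% of all rows were higher and 5.07% lower. Sdcbp, which encodes syntenin, a PDZ protein that binds the tail of B-type ephrins, read 33.8 CPM in control and 17.0 CPM in epilepsy (log2 -0.99, -1.33 to -0.66). Ptpro, a phosphatase known to act on Eph receptors, read 26.8 and 46.0 CPM (log2 0.78, 0.53 to 1.03), and Chn2, a Rac-inactivating chimaerin, was at 0.83 (0.08 to 1.58) from 31 and 33 UMIs. Chn2 in both libraries and Ptpro in control read under 0.25 of their level in another class. Ptpro in epilepsy was above that mark, beside 135 CPM in interneuron-like nuclei of control. RNA from other nuclei was not told apart from that of pyramidal-like nuclei for either gene. Deep-like nuclei had 2 of 27 higher (Fyn and Pak1) and 3 of 27 lower (Cdk5, Rhoa and Sdcbp), against 5.24% and 8.75% of all rows. The Cdk5 interval held 0 (-1.32 to 0.08). In deep-like nuclei Pak1 in both libraries and Rhoa in epilepsy read under 0.25 of their level in another class. Superficial-like nuclei had 1 of 29 higher (Ptpro) and 1 of 29 lower (Sdcbp), against 7.27% and 4.49%, and interneuron-like nuclei had 0 of 21. Sdcbp was the one gene of the list past 1.5-fold in the lower direction in both sublayers, at log2 -1.03 in deep-like and -0.79 in superficial-like nuclei. Chn1, an inhibitor of Rac named here after its values were seen, was also lower in both, at -0.24 (-0.38 to -0.10) and -0.39 (-0.50 to -0.29), short of 1.5-fold. The list's median log2 ratio was 0.08 in pyramidal-like nuclei, where all rows had 0.00.

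The genes whose level pattern was most like that of each member were found over 10 points, the levels of 5 classes in 2 libraries, among 7047 rows. These correlations describe 10 points that share library, depth and free RNA, and are given without a test. Epha3 was most like Thsd7b (Pearson r = 0.97) and Cntnap5a (0.95). Epha10 was most like Col11a1 (0.91), which is itself a marker used to name the deep-like cluster, and Ap2b1 (0.88). Epha4 was most like Arpp21 and Sh3rf1 (both 0.99), Epha6 Wipf3 and Fam189a1 (both 0.99), and Epha7 Mapk4 and Chst1 (both 0.98). Epha5 was closest to Gucy1a2 (0.93) and Csmd1 (0.92). Ephb1 was closest to Creb5 and the myelin gene Mag (both 0.98), and Ephb2 to Syt7 (0.95) and Camk1d (0.94). Efna5 was closest to Fhod3 and Plcxd3 (both 0.98), and Efnb2 to Lrrtm1 (0.96) and Gpr18 (0.95).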

How the data were processed

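Raw UMI counts per gene and nucleus, deposited by the authors as 1 matrix per library, were read for both libraries. Per the submitters' processing notes, Cell Ranger 2.2.0, FastQC and GRCm38/mm10 were used; the annotation, the selection of barcodes, and whether introns and strand entered the counting are not given in the sources used here. Rows on the opposite strand that overlap a member held at most 67 UMIs in pyramidal-like nuclei of a library.

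A nucleus needed at least 200 detected genes and less than 5% of its UMIs from mitochondrial genes, which all met. The doublet caller marked 4 nuclei in each library (0.109% and 0.13%) and was judged not to have worked, so the top 3% by doublet score were removed instead, leaving 3551 control and 2985 epilepsy nuclei. These were clustered with scanpy 1.11.5 and leidenalg 0.10.2 (2000 variable genes without the Eph and ephrin family, 30 components, 20 neighbours, resolution 1.0, genes centred within each library). Clusters were named "-like" from at least 3 markers at 20 CPM or more. Those markers also had to be raised over the other nuclei, except in pyramidal-like clusters, which make up most of each library. Sublayer thresholds were set after the clusters' marker ratios had been seen, and replaced 1 earlier rule. Clusters of CA1 nuclei that met neither rule were left out of the sublayers. UMIs were summed per class and library and scaled to CPM. Ratios carry exact binomial intervals (scipy 1.17.1), checked on simulated data. A call needed 1.5-fold and 50 UMIs in both sums together. A gene was marked for free RNA where its lower library level in a class was under 0.25 of another class's level. Shares were also computed after thinning each nucleus to 1000 UMIs, which leaves out shallower nuclei. TMM factors came from edgeR 4.0.16 in R 4.3.3.

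All 10 members are named, as are other family rows with 50 UMIs and listed signalling genes past 1.5-fold (at most 4 each way). Likeness used log2(CPM + 1) of rows with at least 200 UMIs, keeping the 2 highest correlations. Members, lists and tests were chosen with earlier results of these data known. Positions are from GENCODE M21 and start windows from RefSeq on GRCm38.p6.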

Additional observations from a re-analysis of the deposited data

How the results depend on the processing

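No paired analysis was possible because each condition has 1 library. No ratio of a member changed sign together with a call. The count of members past 1.5-fold moved as follows. In superficial-like nuclei it was 0 with at least 500 detected genes, 0 at resolution 0.5, 0 at 2-fold, 2 at a minimum of 20 UMIs and 3 at a looser fold threshold (log2 0.32). In interneuron-like nuclei it was 1 with at least 500 detected genes, 1 after thinning and 3 at the looser threshold. Over all pyramidal-like nuclei it was 0 after thinning, 0 at a minimum of 200 UMIs and 4 at the looser threshold. It was 2 without the clusters of low UMI counts, an alternative chosen after seeing the data, which adds Epha10 to Ephb1. Between sublayers in control it was 4 at a minimum of 20 UMIs and 4 at the looser threshold, and between libraries in deep-like nuclei it was 0 at 2-fold. The cause of these moves, beyond the changed threshold or the fewer UMIs, was not tested.

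Epha10 stayed above control in deep-like nuclei under all 10 alternatives, from log2 0.73 when the family entered the clustering to 0.87 when nuclei had equal weight, and in superficial-like nuclei under all 12, from 0.15 after thinning to 0.44. Its sublayer ratio ranged from -2.94 to -1.68 in control and from -3.52 to -2.30 in epilepsy, and that of Epha3 from 1.87 to 2.84 and from 2.24 to 2.93. The superficial-like cluster of low UMI counts, set alone against deep-like nuclei, lay outside these ranges in epilepsy, at -2.02 for Epha10 and 2.03 for Epha3. TMM factors shifted the median of all rows in superficial-like nuclei from 0.02 to -0.09. The sign depended on the alternative for the Epha3 ratio between libraries (the same sign under 6 of 12 in superficial-like, 8 of 10 in deep-like and 8 of 11 in pyramidal-like nuclei) and for the Epha7 sublayer ratio (7 of 12 in control, 8 of 12 in epilepsy). It turned under 1 alternative each for Efna5 in superficial-like nuclei, Efnb2 and Epha4 in deep-like nuclei, and the Efnb2 sublayer ratio in epilepsy. Depth limits Ephb1, Efna5 and Efnb2 in pyramidal-like nuclei most.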

Other observations

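A small cluster of neurons led by Tshz2, Vwc2l and Cpne4, of 42 control and 64 epilepsy nuclei, met no naming rule. Its summed level of 5 markers of areas CA2 and CA3 was 850 CPM in control and 1504 CPM in epilepsy. In these nuclei Efna5 read 258 CPM in control and 40.2 CPM in epilepsy, from 37 and 8 UMIs, a log2 ratio of -2.68 (-3.99 to -1.56). Epha4 read 390 and 704 CPM (log2 0.85, 0.39 to 1.32), Epha6 2935 and 4143 CPM, Ephb2 118 and 206 CPM, and Ephb1 55.8 and 95.5 CPM from 8 and 19 UMIs. Efna5 was lower in epilepsy here and these 4 receptors were higher, though the Ephb1 and Ephb2 intervals hold 0. Whether the marker level and these values differ through the makeup of the cluster was not tested.

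Another unnamed cluster carried markers of oligodendrocyte precursors in 24 control and 38 epilepsy nuclei. Ephb1 read 611 CPM in control and 258 CPM in epilepsy there, from 16 and 8 UMIs, beside 324 and 309 CPM in oligodendrocyte-like nuclei.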
